A study of Homo sapiens with 16 samples.

Results

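SOX proteins are transcription factors that share the DNA-binding HMG box, and here the RNA of 10 of their genes was followed in SK-N-BE(2)C, a human neuroblastoma line of the adrenergic type. The members were SOX2, SOX4, SOX5, SOX6, SOX8, SOX9, SOX10, SOX11, SOX12 and SOX13, chosen by symbol as SOX genes of the neural crest and of neurons out of 27037 genes in the count table. The table held 16 SOX family genes in all, and 8 of the 10 members passed the filter on low counts and were tested, while SOX6 and SOX10 did not pass it. The 4 groups were cells given the vehicle DMSO, retinoic acid (RA) at 10 µM, the CDK4/6 inhibitor palbociclib (PB) at 1 µM, or both agents at those doses (PB + RA), each for 5 days and with 4 replicates. All 16 samples came from the same tumor-derived line, and the replicates were separate passages of it. Library totals ranged from 19.5 to 31.6 × 1e+06 counts, so 3 counts, taken as the limit of detection, were worth 0.0949 to 0.154 CPM (counts scaled to a total of 1e+06 per library). Of the adrenergic markers, all 8 of 8 were in the table and their summed level was 2330 to 2621 CPM in DMSO.

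SOX genes fall into groups by sequence. SOX2 belongs to the SOXB1 group, which holds cells in a progenitor state. The SOXC genes SOX4, SOX11 and SOX12 act in postmitotic neurons and in sympathetic neuroblasts, where SOX4 and SOX11 are needed for survival and expansion. The SOXE genes SOX8, SOX9 and SOX10 specify the neural crest, and SOX10 then marks glia and melanocytes while SOX9 drives cartilage. The SOXD genes SOX5, SOX6 and SOX13 lack an activation domain of their own and modulate partners such as SOX9. Retinoic acid binds nuclear receptors that recognise copies of the motif AGGTCA, and PB blocks the kinases that phosphorylate RB in G1.

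SOX4 (chr6:21593982-21598850, plus strand, hg19), SOX11 (chr2:5832516-5841517, plus), SOX12 (chr20:306196-310868, plus) and SOX2 (chr3:181429713-181432224, plus) are genes of 1 exon. SOX8 (chr16:1031770-1036979, plus) and SOX9 (chr17:70117161-70122557, plus) have 3 exons. SOX10 (chr22:38366693-38383429, minus) has 4. The SOXD genes spread over long introns, with 15 exons in SOX5 (chr12:23682438-24715478, minus), 16 in SOX6 (chr11:15987995-16761138, minus) and 14 in SOX13 (chr1:204042243-204096871, plus). SOX2 lies inside an intron of the noncoding gene SOX2-OT, which had at most 4 counts in any library.

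The sequences just upstream are shown for SOX4, SOX2 and SOX12, a gene that rose with RA, a gene that fell with PB and a gene whose level with either single agent stayed near that of DMSO. They are the 250 bases before the RefSeq start on build GRCh38.p14, read on the plus strand, which is the coding strand of all 3 genes. Of the 10 members, 6 had a window in the table used, and SOX8, SOX9, SOX10 and SOX11 had none. Capitals mark exact matches, on either strand, to the 9 motifs named after the sequences.
SOX4, chr6:21593501-21593750: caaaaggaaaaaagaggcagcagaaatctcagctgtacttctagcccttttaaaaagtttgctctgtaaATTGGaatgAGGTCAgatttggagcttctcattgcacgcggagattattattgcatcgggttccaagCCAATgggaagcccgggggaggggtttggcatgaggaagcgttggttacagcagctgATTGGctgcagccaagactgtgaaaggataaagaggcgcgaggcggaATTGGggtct
SOX2, chr3:181711675-181711924: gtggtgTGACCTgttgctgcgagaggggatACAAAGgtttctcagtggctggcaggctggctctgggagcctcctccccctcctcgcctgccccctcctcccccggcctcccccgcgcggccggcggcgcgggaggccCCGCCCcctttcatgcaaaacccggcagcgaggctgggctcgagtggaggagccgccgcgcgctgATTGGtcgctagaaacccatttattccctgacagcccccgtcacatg
SOX12, chr20:325302-325551: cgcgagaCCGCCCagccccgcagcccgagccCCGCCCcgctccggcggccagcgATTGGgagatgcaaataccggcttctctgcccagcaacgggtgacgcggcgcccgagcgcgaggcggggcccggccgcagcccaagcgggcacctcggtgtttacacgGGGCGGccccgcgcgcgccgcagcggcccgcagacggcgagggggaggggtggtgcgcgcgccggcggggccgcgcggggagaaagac
The SOX4 window held the retinoid receptor motif AGGTCA once, 172 to 167 bases before the start, and CCAAT 4 times. The SOX2 window held AGGTCA on the opposite strand at 244 to 239 bases and the SOX core ACAAAG at 220 to 215 bases. The SOX12 window held no AGGTCA and had the GC box GGGCGG 3 times. Of 35116 windows of the same length, 12.1% held AGGTCA and 8.8% its variant AGTTCA, 13.7% the SOX core ACAAAG and 9.29% the core ACAATG, and 42.6% the GC box GGGCGG. The letters CCAAT were found in 32% of windows, the E-box CACGTG in 6.34%, and the E2F motifs TTTCCCGC in 1.39% and TTTGGCGC in 0.55%. A match describes the letters and is not a bound site. The windows were 48.8% GC for SOX4, 68.8% for SOX2 and 79.2% for SOX12.

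The members covered a wide range of levels. Per kilobase of exon, SOX4 had the highest level in every group, at 77.6 ± 13.5 CPM per kb in DMSO (SD, n = 4). SOX12 followed at 27.4 ± 1.15, then SOX9 at 11.6 ± 1.61 and SOX11 at 8.91 ± 1.55, and the ranges of SOX9 and SOX11 overlapped. A gap followed, since SOX2 stood at 0.422 ± 0.130 CPM per kb. SOX8 (0.218), SOX5 (0.129) and SOX13 (0.0827) came next, each overlapping the gene above it in this order. SOX6 and SOX10 were lowest, at 0.00527 and 0, below the range of SOX13. SOX4 made up 50.1% of the summed level of the 16 SOX genes in DMSO, 50% in PB, 68% in RA and 64.7% in PB + RA. SOX8 stood at place 6 among the members in DMSO and at place 5 in PB + RA, where it reached 6.01 ± 2.47 CPM per kb and overlapped SOX11 at 7.04 ± 1.85. SOX2 moved from place 5 among the members in DMSO to place 8 in PB + RA.

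**Figure D1:**
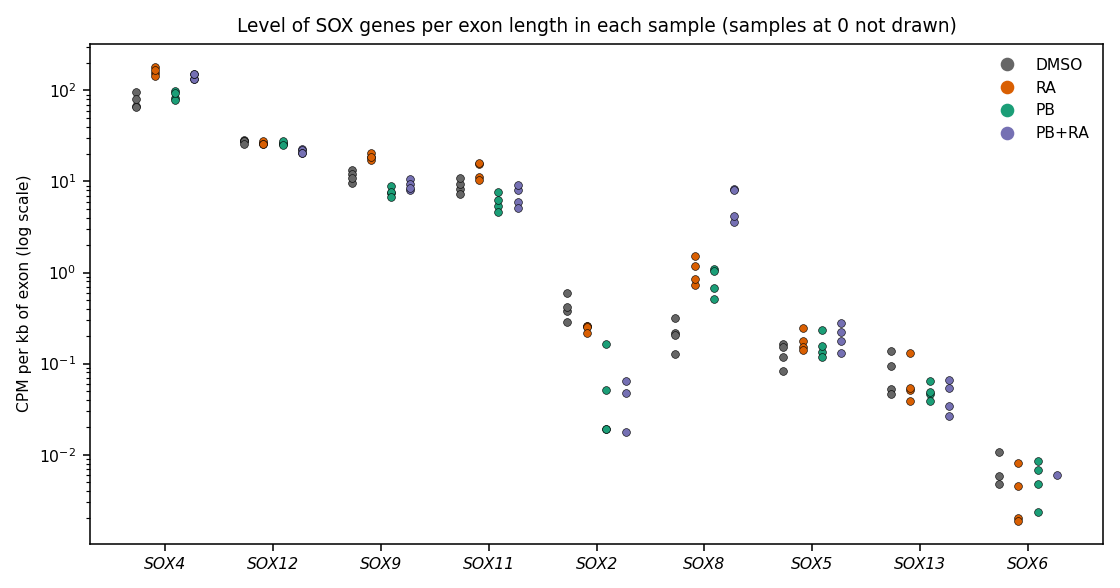
Level of the SOX genes per kilobase of exon in each sample, in CPM per kb on a log axis, with 1 point per sample coloured by group and samples at 0 not drawn. SOX4 sits above the other genes in all groups, and the SOX8 points of PB + RA overlap the range of SOX11.

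A gene was called changed at a Benjamini-Hochberg adjusted p under 0.05 in edgeR's quasi-likelihood test over 15415 genes together with an absolute log2 fold change over 0.5. Against DMSO, PB changed 4 of the 8 tested members, with SOX8 higher and SOX2, SOX9 and SOX11 lower. Of all tested genes 28.2% were called in that comparison, 16.9% higher and 11.3% lower. RA changed 4 of 8 members, SOX4, SOX8, SOX9 and SOX11, and all of them were higher, beside 13.3% of all genes called, 10.8% higher and 2.54% lower. PB + RA changed 3 of 8 members, SOX4 and SOX8 higher and SOX2 lower, beside 41.9% of all genes, 24% higher and 17.9% lower. The median log2 fold change of the 8 members was -0.32 for PB, 0.51 for RA and -0.37 for PB + RA, against 0.03, 0.01 and 0.04 over all tested genes. The 3 comparisons share the DMSO samples. SOX8 was the member called in the same direction by all 3 treatments.

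**Figure D2:**
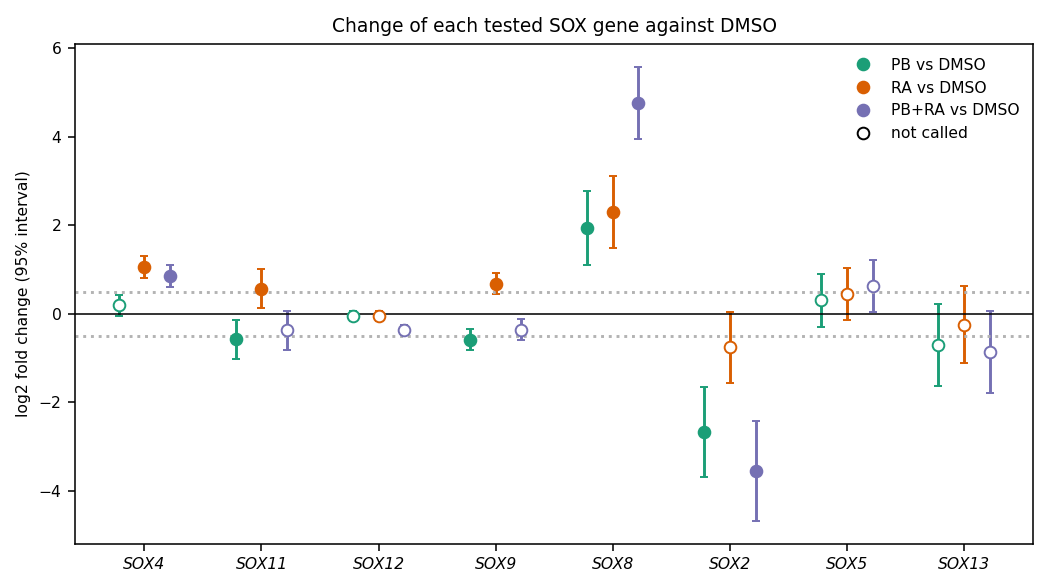
Log2 fold change against DMSO of the 8 tested SOX genes, with 95% intervals from the edgeR fit, filled where called and open where not; dotted lines mark the minimum of 0.5. SOX8 is raised by all 3 treatments, up to 4.76, and SOX2 is lowest, at -3.55, in PB + RA.

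SOX4, a SOXC gene of differentiating neurons, had the most RNA of the members. Its CPM in replicates 1 to 4 were 328, 324, 463 and 397 in DMSO and 756, 707, 890 and 807 in RA. They were 401, 378, 483 and 458 in PB and 649, 655, 741 and 745 in PB + RA. All samples that received RA, alone or with PB, lay above all samples that did not, and the ranges of DMSO and PB overlapped. The fitted level in RA was 2.08 times that of DMSO, with an adjusted p of 5.89e-06. In PB + RA it was 1.81 times DMSO (adjusted p = 5.55e-06) and 1.59 times PB (log2 fold change 0.67 ± 0.11 (SE), adjusted p = 0.000253). PB alone gave a log2 fold change of 0.19 ± 0.11 (adjusted p = 0.172), which did not pass the test. PB + RA against RA gave -0.20 ± 0.11 (adjusted p = 0.144, 95% interval -0.44 to 0.04) and did not pass it either. With the replicate number as a block these changes were 0.19 (adjusted p = 0.0012) and -0.20 (adjusted p = 0.000975). Both were thus detected in that fit but lay under the minimum fold change for a call. CASC15, a noncoding gene on the same strand that starts 65.6 kb beyond the end of SOX4, rose in all 3 treatments, with log2 fold changes of 1.60 with RA, 1.08 with PB and 2.29 with both, the last from 5.42 ± 1.07 to 27.1 ± 1.16 CPM.

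**Figure D3:**
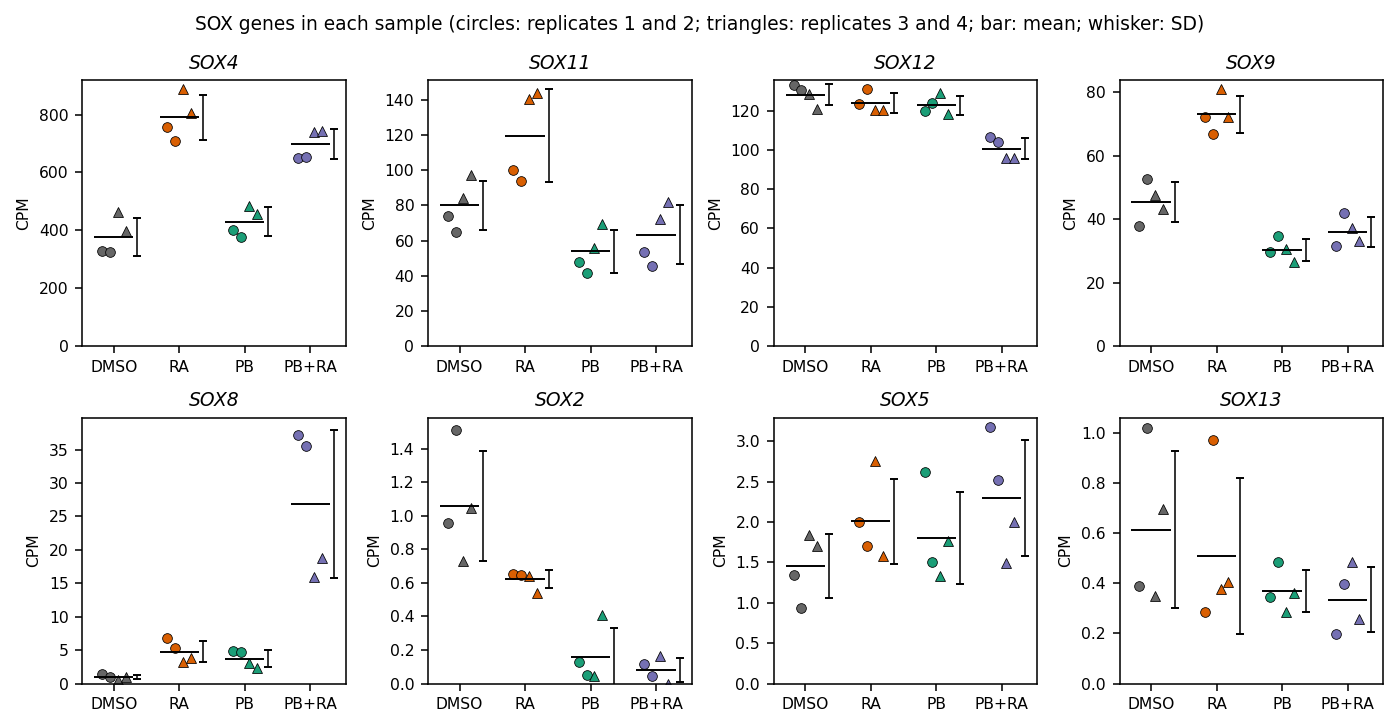
CPM of the 8 tested SOX genes in every sample (y axis, linear from 0), by group, with replicates 1 and 2 as circles, replicates 3 and 4 as triangles, the mean as a bar and the SD as a whisker beside it, cut at 0. The SOX4 points split by RA, the SOX2 points split by PB, and the SOX8 points of PB + RA, from 15.96 to 37.1, lie above all others.

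SOX11, the SOXC gene tied to immature adrenergic neuroblasts, moved in opposite directions with the single agents. DMSO gave 73.9, 65.1, 84.3 and 97.5 CPM, and RA gave 100.3, 93.8, 141 and 144. PB gave 48.0, 41.6, 55.9 and 69.8, and PB + RA gave 53.6, 45.6, 72.1 and 82.0. PB and RA each overlapped DMSO by 1 sample on either side, and RA lay wholly above both groups that received PB. The log2 fold change was 0.57 ± 0.20 with RA (adjusted p = 0.0419), -0.57 ± 0.21 with PB (adjusted p = 0.0295) and -0.37 ± 0.21 with PB + RA, which did not pass the test (adjusted p = 0.126). PB + RA was lower than RA by 0.94 ± 0.21 on the log2 scale, that is RA was 1.92 times as high (adjusted p = 0.00129). Both calls against DMSO were narrow. The PB call ended when DMSO replicate 3 or 4 or PB replicate 1 or 2 was left out, with adjusted p-values of 0.0089 to 0.0905 and log2 fold changes of -0.75 to -0.47 over the 8 such fits. The RA call ended without DMSO replicate 1, 2 or 3 or RA replicate 3 or 4, over values of 0.44 to 0.67 (adjusted p = 0.0278 to 0.14), and with an offset for GC content and length, at 0.39. With the replicate number as a block the adjusted p was 8.64e-09 for PB and 2.75e-08 for RA, with log2 fold changes of -0.58 and 0.56. In the same fit PB + RA against DMSO was -0.39 with an adjusted p of 1.42e-06, below the minimum of 0.5, and SOX11 was lower in PB + RA than in the DMSO sample of the same number in 4 of 4 pairs.

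SOX12, the SOXC member with the weakest activation domain, had SDs of 4.83 to 5.45 CPM about group means of 100.6 to 128 CPM. DMSO gave 133, 131, 129 and 121 CPM, RA gave 124, 131, 120.5 and 120.5, and PB gave 119.95, 124, 129 and 118. PB + RA gave 106, 104, 95.9 and 96.0. DMSO, RA and PB overlapped, and all samples of PB + RA lay below all others. The log2 fold change of PB + RA against DMSO was -0.38 ± 0.05 with an adjusted p of 9.47e-06, below the minimum of 0.5 and so not called, and it was -0.32 against either single agent. RA and PB alone each gave -0.06 ± 0.05, with 95% intervals of -0.17 to 0.05.

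SOX9, the SOXE gene of migrating neural crest and of cartilage, rose with RA and fell with PB. Its CPM were 38.0, 52.8, 47.7 and 43.2 in DMSO, 72.2, 66.9, 81.1 and 72.2 in RA, 29.6, 34.7, 30.5 and 26.5 in PB, and 31.4, 42.1, 37.3 and 33.2 in PB + RA. RA lay wholly above the other 3 groups and PB wholly below DMSO, while PB + RA overlapped both PB and DMSO. The log2 fold change was 0.68 ± 0.11 with RA (adjusted p = 0.000207) and -0.58 ± 0.11 with PB (adjusted p = 0.000356). PB + RA stood 0.36 ± 0.11 below DMSO on the log2 scale (adjusted p = 0.00885), under the minimum of 0.5. It was lower than RA alone by a log2 fold change of -1.04 ± 0.11 (adjusted p = 8.22e-07), and RA was thus 2.06 times as high. Markers of the mesenchymal neuroblastoma state, of which 6 of 7 were in the table, had a summed level of 1003 to 1274 CPM in DMSO, 1749 to 2212 with RA, 753 to 902 with PB and 997 to 1476 with both. Their order by group was that of SOX9 except for DMSO and PB + RA, and their part in the SOX9 values was not tested. FN1 and VIM, at means of 175 and 862 CPM in DMSO, made up most of the marker sums. Of the 6 markers RA raised 3 and lowered 0, beside 10.8% and 2.54% of all tested genes. PB raised 0 and lowered 4, beside 16.9% and 11.3%. PB + RA raised 2 and lowered 3, beside 24% and 17.9%. In bulk RNA, a change in the share of cells that carry a transcript and a change in its amount per cell cannot be told apart. LINC01152, a noncoding gene that ends 79.7 kb before SOX9, rose with RA and also with PB, from 1.34 ± 0.279 CPM in DMSO to 2.71 ± 0.191 and 3.36 ± 0.509.

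SOX8, a SOXE gene of early neural crest that overlaps SOX9 and SOX10 in function, showed the largest change of the members. DMSO gave 1.42, 0.978, 0.569 and 0.929 CPM, from 18 to 40 counts a library. RA gave 6.76, 5.34, 3.28 and 3.83, and PB gave 4.85, 4.69, 3.04 and 2.31. PB + RA gave 37.1, 35.6, 15.96 and 18.8 CPM. Each treatment lay above DMSO without overlap, RA and PB overlapped each other, and every PB + RA sample was above every other sample. The level rose 3.83-fold with PB (log2 fold change 1.94 ± 0.39, adjusted p = 0.000679), 4.91-fold with RA (2.30 ± 0.39, adjusted p = 0.000349) and 27.2-fold with PB + RA (4.76 ± 0.38, adjusted p = 2.75e-08). PB + RA was 7.08 times PB (2.82 ± 0.34, adjusted p = 1.17e-05) and 5.53 times RA (2.47 ± 0.33, adjusted p = 1.26e-05). The calls held in all 8 fits that left out 1 of the samples compared, in each of the 5 comparisons. Glial markers, of which 4 of 6 were in the table, summed to 18.4 to 45.7 CPM in DMSO, 23.5 to 52.3 with RA, 30.1 to 54.6 with PB and 31.2 to 39.4 with both, so that their ranges overlapped between all groups.

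SOX10, the SOXE gene that defines Schwann cells and melanocytes, had 1 count in the 16 libraries together, in PB replicate 2. It lay below the limit of 3 counts in every library, and no fold change is given. It shares 260 exon bases with POLR2F on the opposite strand, a gene at a mean of 118 CPM, and the 1 count of SOX10 stood beside that level.

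SOX2, the SOXB1 gene of neural progenitors, was low in DMSO and near the limit of detection with PB. The counts were 27, 37, 23 and 27 in DMSO, 16, 16, 17 and 12 with RA, 3, 1, 1 and 9 with PB, and 3, 1, 4 and 0 with both agents. All samples given PB lay below all samples without it, and RA lay wholly below DMSO. The mean level was 1.06 ± 0.33 CPM in DMSO, 0.621 ± 0.054 with RA, 0.158 ± 0.171 with PB and 0.0813 ± 0.0727 with both (SD, n = 4). PB lowered it 6.38-fold (log2 fold change -2.67 ± 0.48, adjusted p = 0.000186) and PB + RA 11.8-fold (-3.55 ± 0.53, adjusted p = 1.75e-05). PB + RA was also below RA (-2.79 ± 0.57, adjusted p = 0.000555). RA against DMSO gave -0.76 ± 0.38, which did not pass the test (adjusted p = 0.132), and PB + RA against PB gave -0.88 ± 0.73 (adjusted p = 0.366, 95% interval -2.42 to 0.66), a difference that was not detectable at these counts. PB replicate 4 held 9 of the 14 counts of its group, and without it the log2 fold changes of SOX2 were -3.72 for PB against DMSO, still called, and 0.14 for PB + RA against PB.

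The SOXD members were low and were called in no comparison. SOX5 had 23 to 58 counts a library in DMSO, and its CPM were 1.35, 0.938, 1.83 and 1.70 in DMSO and 3.18, 2.52, 1.495 and 2.00 in PB + RA. The ranges overlapped, and the log2 fold change of 0.63 ± 0.28 missed the threshold (adjusted p = 0.0567). SOX13 had 11 to 25 counts in DMSO and 5 to 12 in PB + RA, with a log2 fold change of -0.86 ± 0.44 (adjusted p = 0.0957). With the replicate number as a block both passed in PB + RA against DMSO, SOX5 at 0.62 (adjusted p = 0.0319) and SOX13 at -0.83 (adjusted p = 0.0296), which took the members called there from 3 to 5. SOX6, a partner of SOX5 in cartilage, was not tested, with sums over the 4 libraries of 12 counts for DMSO, 8 for RA, 10 for PB and 3 for PB + RA.

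The design also compared PB + RA with each single agent. Adding RA to PB raised SOX4 and SOX8 and changed 2 of 8 members, beside 16.3% of all tested genes called, 9.02% higher and 7.27% lower. Adding PB to RA changed 4 of 8, SOX8 higher and SOX2, SOX9 and SOX11 lower, beside 29% of all genes called, 14.9% higher and 14.1% lower. The median log2 fold change of the members was 0.21 and -0.47 in these comparisons, against -0.01 and 0.00 over all genes. SOX9 and SOX11, which RA raised in cells without PB, had log2 fold changes of 0.22 ± 0.11 (adjusted p = 0.14) and 0.20 ± 0.21 (adjusted p = 0.478) where RA was added to PB, and neither passed the test. With the replicate number as a block they were 0.22 (adjusted p = 0.0323) and 0.20 (adjusted p = 0.00535). Both were thus detected as higher in that fit but lay under the minimum of 0.5.

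The interaction, which takes the PB and RA changes together away from the change under both agents, tested that difference directly. No member was called by edgeR's quasi-likelihood test, DESeq2 or limma-voom, beside 3.44% of all genes called by edgeR, 0.415% higher and 3.02% lower, and 3 of 8 members had an unadjusted p under 0.05 in the edgeR test. SOX9 had a sum of single changes of 0.10 and a combined change of -0.36, an interaction of -0.46 ± 0.16 (adjusted p = 0.114). SOX4 was at -0.39 ± 0.16 (adjusted p = 0.196) and SOX12 at -0.26 ± 0.08 (adjusted p = 0.0578). SOX8 had a sum of 4.24 and a combined change of 4.76, a difference of 0.53 ± 0.52 with a 95% interval of -0.57 to 1.63 (adjusted p = 0.672). In this fit, without a replicate block, its combined rise could not be told from the sum on the log2 scale. SOX2 gave -0.12 ± 0.67. With the replicate number as a block, 4 members had adjusted p-values under 0.05 but stayed below the minimum of 0.5, with interactions of -0.39 for SOX4 (adjusted p = 0.000322), -0.47 for SOX9 (adjusted p = 0.00568), -0.37 for SOX11 (adjusted p = 0.00186) and -0.26 for SOX12 (adjusted p = 0.00666). SOX8 was at 0.51 ± 0.21 in the block fit. Its 95% interval there was 0.07 to 0.95, above 0, but it did not pass the adjusted test (adjusted p = 0.109).

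**Figure D4:**
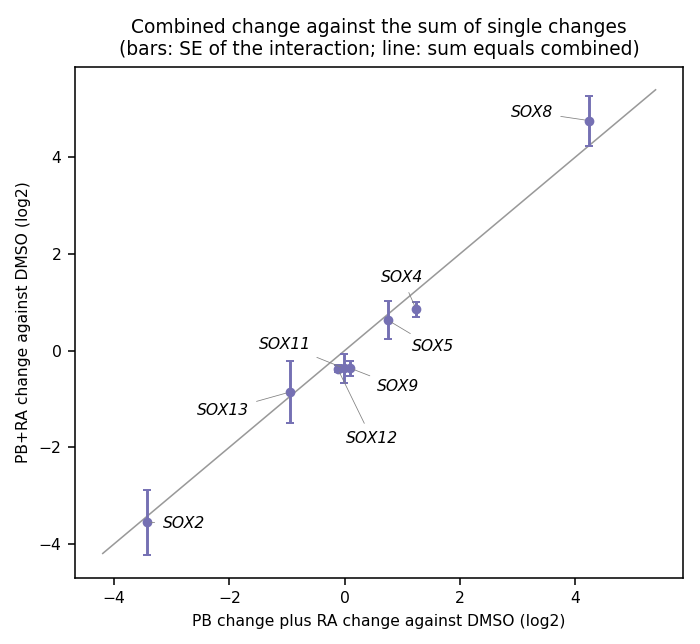
Log2 fold change of PB + RA against DMSO (y axis) over the sum of the log2 fold changes of PB and RA alone (x axis) for the 8 tested SOX genes, with the SE of the interaction as bars and the line where both are equal. SOX2 touches the line within its bar and SOX8 lies above it, and SOX4, SOX9, SOX11 and SOX12 lie below it, by 0.26 to 0.46.

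Replicates 1 and 2 differed from replicates 3 and 4 across the study, and the third principal component, 10.8% of the variance, separated them. The labels do not say what the sets shared. In every group SOX8 was higher in replicates 1 and 2 than in 3 and 4, with means of 36.4 and 17.4 CPM in PB + RA and 1.20 and 0.749 in DMSO. SOX11 and SOX4 went the other way in every group, SOX11 with means of 49.6 and 77.1 CPM in PB + RA. Within the sets the fold changes of SOX8 were close, with 4.88 and 4.49 on the log2 scale for PB + RA against DMSO (adjusted p = 1.36e-09 and 4.57e-12). SOX2 fell with PB in both sets, by 3.69 and 1.94 on the log2 scale. SOX9 gave 0.61 and 0.70 with RA and -0.51 and -0.72 with PB, but in replicates 1 and 2 alone the adjusted p-values were 0.0583 and 0.0699. SOX5 differed between the sets, with 1.28 for PB + RA against DMSO in replicates 1 and 2 (adjusted p = 0.00366) and -0.11 in replicates 3 and 4 (adjusted p = 0.761), a difference that was not itself tested.

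**Figure D5:**
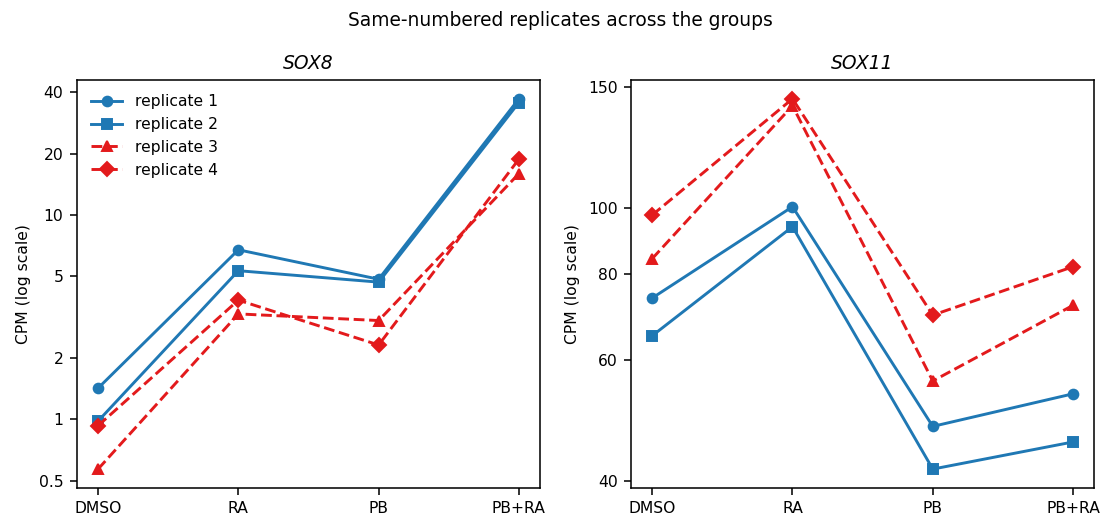
CPM of SOX8 and SOX11 on log axes in the 4 groups, with lines that join samples of the same replicate number. Replicates 1 and 2 lie above 3 and 4 for SOX8 and below them for SOX11, and each line is highest in PB + RA for SOX8 and in RA for SOX11.

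Genes known to lie downstream of the SOXC factors were read next. Of 4 such genes, all tested, 1 was called higher and 1 lower with PB, and 1 was called higher with RA, beside 16.9% and 11.3% of all tested genes called higher and lower with PB and 10.8% called higher with RA. DCX, a microtubule protein of migrating neurons, had a mean of 16.6 ± 1.56 CPM without agents, 79.98 ± 6.86 with RA, 113 ± 17.2 with PB and 202 ± 36.1 with both, and its interaction was -1.45 ± 0.18 (adjusted p = 0.000409). TEAD2, a factor of the Hippo pathway, fell with PB (-1.85 ± 0.38, adjusted p = 0.000915) and in PB + RA (-1.12 ± 0.37, adjusted p = 0.015). TUBB3, the neuronal beta tubulin, stood higher in all 3 treatments but under the minimum of 0.5, with log2 fold changes of 0.39 for PB (adjusted p = 5.62e-06), 0.26 for RA (adjusted p = 0.000809) and 0.44 for PB + RA (adjusted p = 7.09e-07). MAP2, a dendritic microtubule protein, was under the minimum too, at 0.40 (adjusted p = 0.0401), 0.30 (adjusted p = 0.151) and 0.41 (adjusted p = 0.0286). Of 6 chromatin and cell-state genes linked to SOX11, 2 were called lower with PB and with PB + RA, beside 11.3% and 17.9% of all genes. With RA 0 were called lower, beside 2.54% of all genes. Those lower with PB + RA were DNMT1, the maintenance DNA methyltransferase, at -1.35 ± 0.06 (adjusted p = 6.52e-12), and MYB, a proto-oncogene transcription factor, at -1.76 ± 0.33 (adjusted p = 0.000195).

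Other genes of the neural crest programme, to which SOX8, SOX9 and SOX10 belong, were read the same way. Of 11 specifiers, 10 were in the table and 8 tested, and PB lowered 3 and raised 0, while PB + RA lowered 4 and raised 0. Of all tested genes, 11.3% and 17.9% were called lower and 16.9% and 24% higher in these 2 comparisons. SNAI2, a repressor of epithelial genes, fell with PB by 1.21 on the log2 scale (adjusted p = 0.00114). RA raised ETS1 and NR2F1, at 1.36 and 1.06, and lowered MSX1. PAX3 had at most 1 count in any library. Of 10 glial genes that SOX10 is known to drive, 8 were in the table and 6 tested, of which PB raised 4, RA raised 3, and PB + RA raised 4 and lowered 1, with SOX10 itself at the level given above. Of all tested genes, 16.9%, 10.8% and 24% were called higher in these comparisons, and 17.9% lower in the last. PMP22, a protein of peripheral myelin, went from 13.7 ± 3.29 CPM in DMSO to 37.1 ± 7.39 in PB + RA (log2 fold change 1.40, adjusted p = 3.08e-06). S100B, a calcium-binding protein of glia, rose with PB and with PB + RA, by 0.88 and 0.89. ERBB3, the neuregulin receptor, was lower in PB + RA (-2.39 ± 0.86, adjusted p = 0.0234), with an SD in DMSO of 10.9 about a mean of 12.5 CPM.

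Cartilage genes that SOX9 drives with SOX5 and SOX6 were mostly near 0, and 5 of 10 were tested. COL2A1, the collagen of cartilage, went from 0.218 ± 0.0572 CPM in DMSO to 2.88 ± 2.07 in PB (log2 fold change 3.69 ± 0.60, adjusted p = 8.97e-05) and 2.13 ± 1.21 in PB + RA. COL9A2 rose in all 3 treatments, at 0.68 with PB, 0.77 with RA and 1.04 with PB + RA, and PB + RA raised 4 of the 5 tested, beside 24% of all genes. Neural progenitor genes beside SOX2 were all in the table, and 6 of 10 were tested. PB lowered 2 of them and raised 0, RA raised 3, and PB + RA lowered 3 and raised 1. Of all tested genes, 11.3% were lower and 16.9% higher with PB, and 10.8% were higher with RA. With PB + RA, 17.9% of all tested genes were lower and 24% higher. MSI1, an RNA-binding protein of neural stem cells, fell with PB (-0.81 ± 0.16, adjusted p = 0.00041) and PB + RA (-0.85) and rose with RA (0.63). PAX6, a progenitor transcription factor at a mean of 0.43 CPM, fell with PB by 3.04 on the log2 scale (adjusted p = 0.00485). LIN28B, an oncofetal RNA-binding protein, fell in PB + RA by 1.07, and HES1, a Notch effector, rose there by 0.96. Melanocyte markers, 4 of 5 in the table, summed to 7.40 to 8.05 CPM in DMSO and 4.13 to 8.36 in PB + RA, and MLANA had at most 1 count in any library.

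Among SOX family genes outside the 10, SOX18, a SOXF factor best known from endothelium, changed with the single agents in the directions opposite to SOX9 and SOX11. It had 45.3 ± 5.78 CPM in DMSO, 22.3 ± 3.70 with RA, 77.1 ± 10.6 with PB and 55.5 ± 11.2 with both, so RA lowered it (log2 fold change -1.03 ± 0.15, adjusted p = 9.51e-05) and PB raised it (0.77 ± 0.15, adjusted p = 0.00036). SOX7 was tested and called in no comparison, and SOX1, SOX3, SOX15 and SOX30 had at most 8 counts in any library.

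For the called members with a mean of at least 10 CPM, the genes of most similar pattern were sought among 10001 genes by Pearson's r of log2 CPM over the 16 samples, which share 4 groups and 4 replicate numbers. SOX4 was closest to OCIAD2 (r = 0.981) and to HIC1 (r = 0.974), a zinc finger repressor that changed by 3.12 with RA and 0.69 with PB on the log2 scale. SOX9 was closest to DKK1 (r = 0.96), a secreted WNT antagonist at a mean of 119 CPM, which changed by 1.17 with RA and -0.90 with PB, and to PLAU (r = 0.951), the urokinase protease. SOX11 was closest to LRCH3 (r = 0.96), which changed less than SOX11 itself, by 0.09 with RA and -0.16 with PB. Next came POC1B (r = 0.957), a centriole protein with changes of 0.37 with RA and -0.38 with PB.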

How the data were processed

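Per the labels and the methods, polyadenylated RNA was made into directional libraries and read as paired ends; per the submitters' processing notes the tools were Trim Galore 0.6.4, STAR 2.6.1d (hg19) and DESeq2 1.32.0. The deposited counts are the authors' raw reads per gene from STAR. The deposited CPM values are the authors' (counts scaled to a total of 1e+06), equal to the counts so scaled to within 5.00e-12. The deposited DESeq2 table holds the authors' own fold changes and p-values and was not used. Annotation release and counting strand were not given in the sources used here, so genes that overlap on opposite strands are uncertain.

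Counts were fitted in R 4.3.3 with edgeR 4.0.16 (filterByExpr, TMM factors 0.983 to 1.02, robust quasi-likelihood, 1 coefficient per group, all 16 samples), and SE is the absolute log2 fold change over the square root of F. Every adjusted p is from edgeR's quasi-likelihood test unless another tool is named. Benjamini-Hochberg adjustment was over the genes kept in each fit. These were 15415 in the fit just described, a number that can differ with other filters or samples. Alternatives used DESeq2 1.42.0, limma 3.58.1 (voom), DESeq2's size factors, other filters and minimums, a replicate block, replicate sets, an offset for GC and length (models for 94.5% of tested genes) and leaving out each sample. Same-numbered samples of different groups deviated together (24 pairs, r = 0.33 to 0.573) and are treated as paired by number in the block; per the methods, replicates are passages. Exon lengths and coordinates are GENCODE on GRCh37, promoter windows RefSeq on GRCh38.p14. The 10 members, the gene lists and the rule for named genes (all members, list genes at 1 CPM or more and the 2 with the largest called change, overlapping genes and the 2 most similar genes) were chosen with earlier results of these data known. Markers CDH19, FOXD3, TYR and PRRX1 were not analysed here.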

Additional observations from a re-analysis of the deposited data

Results flagged for a closer look

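In 37 sets of 4 samples (a SOX gene in a group), 3 had a sample beyond Dixon's 95% limit. The limit is on the gap to the nearest neighbour over the range of the set, and chance passes it in about 1 in 20 groups. That rate does not apply to the flagged sets of SOX6 and SOX10, where all other replicates were 0 and the ratio was fixed in advance. SOX2 was lowest in RA replicate 4, at 0.5406 CPM from 12 counts, where the other RA replicates had 16 or 17. SOX6 was highest in PB + RA replicate 1, at 0.1193 CPM from 3 counts beside 0 in the other replicates. SOX10 was highest in PB replicate 2, at 0.04837 CPM, which was its single count. All 3 rest on counts at which 1 to 4 reads set the value.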

How the results depend on the processing

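Of 1047 values for single SOX genes under the alternatives, 1000 stayed called or stayed not called, 24 became calls, 23 lost one and 0 reversed a called direction. Direction was not compared where neither value was called, and some of those values changed sign. SOX5 with PB, for example, went from 0.31 to -0.23 in replicates 3 and 4 alone. A log2 fold minimum of 1 left 2 members called with PB, 2 with RA and 1 for PB + RA against PB. Replicates 1 and 2 alone gave 2 with RA and 5 with PB + RA against DMSO. That last count was also 5 with the replicate block, 5 with no fold minimum, 6 with the GC and length offset (adding SOX11, SOX12 and SOX13) and 7 with that offset and the block. The interaction called 1 member, SOX8 at 0.60 (adjusted p = 0.042), with the offset and the block, and 0 otherwise. Without the offset the block changed no other count of calls; with it, the block took PB from 4 to 5 members and RA from 3 to 4. Leaving out 1 sample gave 3 to 4 members for PB, 3 to 4 for RA and 3 to 5 for PB + RA against DMSO, where leaving out DMSO replicate 3 gave 5 by adding SOX5 and SOX13. PB + RA against PB and against RA kept 2 and 4 members in these fits. RA lowered SOX2 past the threshold when only those groups were fitted (-0.76, adjusted p = 0.0389). Counted on the longest transcript, the order of levels in DMSO kept all 10 places. What depth limits is SOX2 with PB, SOX6, SOX10 and SOX13, which had at most 25 counts in any such library. The causes of these shifts were not tested.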
